A study of Mus musculus with 14 samples.

Results

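The folate and methionine cycle genes described here are 33 mouse genes of folate uptake, one-carbon enzymes and the methionine cycle, chosen by name. A gene was taken through the probe sets whose single gene symbol in the array annotation was its own, and 31 of the 33 had such a probe set, 61 probe sets in all. Across the series 18193 genes had a probe set of 1 symbol. Of the 31 members, 24 lay above the filter on low signal, as did 11269 genes in all, and these 24 are the measured members. Folr1, Gldc, Tyms, Mthfs, Ftcd, Bhmt and Gnmt lay below it, and Amt and Mat2a were not analysed here.

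Whole uteri were taken on day 3.5 of gestation, counting the morning of the vaginal plug as 0.5, and each of 14 uterine RNA samples was hybridised to 1 Affymetrix array. KO females were Folr4-/-, homozygous for a mutation of the gene now called Izumo1r, and WT females were wild type, all on a C57BL/6 background and a chow diet. Folinic acid, a reduced folate, was injected into the peritoneum at 12.5 mg/kg, 10 days and again 3 days before mating, and control females were injected with saline. The groups were KO folinic acid (n = 4), KO saline (n = 3), WT folinic acid (n = 3) and WT saline (n = 4). The mutation is in every cell of the female and the tissue is a mixture of cell types, so fewer cells of a type and less RNA per cell cannot be told apart in any value below. The labels call the replicates biological, although 2 WT saline titles share a number and so do 2 WT folinic acid titles, with no meaning stated.

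The probe set of Folr4 lay below the filter, at signals of 6.14 to 70.2 in the 7 KO arrays and 13.5 to 72.4 in the 7 WT arrays, so it does not check the genotype labels. All 10 epithelial, 9 stromal, 6 smooth muscle and 5 endothelial markers were measured above the filter, and 0 of 5 liver markers were. The deposited signals are linear intensities, scaled by the authors so that each array has nearly the same trimmed mean, and the median signal per array ran between 130.0 and 157. The number of arrays limits the precision. The ratio of 3-prime to 5-prime signal of the actin control probe sets, a measure of how complete the labelled RNA was, spanned 1.54 to 3.64. Each array was correlated (Spearman) with every other over the probe sets above the filter, and its average was lowest on WT saline array 3 (0.912) and KO folinic acid arrays 1 (0.917) and 4 (0.927), then 0.928 on KO folinic acid array 2, and 0.937 to 0.951 on the other 10.

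Folate carries one-carbon units. Cells take it up through receptors and carriers, lengthen it with glutamates to keep it, and load it with carbon from serine and glycine, largely in mitochondria, which export formate to the cytosol. There the carbon is used to build purines and thymidylate or to turn homocysteine into methionine, the precursor of the methyl donor S-adenosylmethionine. In the early pregnant uterus, epithelium and then stroma divide before implantation, and dividing cells draw heavily on this network.

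No measured member passed the threshold, a Benjamini-Hochberg adjusted p of 0.05 over all 22519 probe sets kept, in any of the 5 comparisons made with limma. Of all measured genes, 0.00887% (1 gene) passed it in each of the 2 comparisons of KO with WT uteri and 0 in the other 3. The most member genes at an unadjusted p under 0.05 were found between KO uteri given folinic acid and KO uteri given saline. There Slc46a1, Mthfd1l, Gcsh, Mtr and Mthfd2 had lower signal after folinic acid, by log2 differences of -0.76, -0.55, -0.43, -0.77 and -1.52, with adjusted p between 0.249 and 0.316. In WT uteri the same injection gave these 5 genes log2 differences between -0.13 and 0.63.

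In KO folinic acid against KO saline uteri, 18 of the 24 members were lower and 6 higher, where 49.8% of all genes were lower and 50.2% higher. Their median log2 difference was -0.21, against 0.001 over all genes. The 5 members at an unadjusted p under 0.05 were all lower, where 6.94% of all genes were lower and 6.39% higher at that level. In 5 members, Slc46a1, Mthfd1l, Mtr, Gcsh and Gart, every KO folinic acid array was below every KO saline array, as in 5.76% of all genes, and in 0 members was the reverse the case, as in 4.97% of all genes. Leaving out KO saline array 1 lowered the 5 members to 3. Without KO folinic acid arrays 1 and 4 together, 0 members were at an unadjusted p under 0.05 and the median was -0.055. That alternative was added after the data had been seen. Those arrays were the lowest of the series for the members, so leaving them out works toward a smaller difference, with fewer arrays left.

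In KO folinic acid against WT folinic acid uteri, 22 members were lower and 2 higher, where 53.3% of all genes were lower and 46.7% higher. The median was -0.23, against -0.02 over all genes. Gcsh was the 1 member at an unadjusted p under 0.05, where 2.42% of all genes were lower and 1.51% higher at that level, and Gcsh and Slc19a1 did not overlap between the groups, as in 3.27% of all genes in the lower and 1.73% in the higher direction. The 1 member became 0 without KO folinic acid array 1 or 4 or WT folinic acid array 1 or 3, and 0 in the fit with no variance trend. It became 5 without KO folinic acid array 2, 3 without KO folinic acid array 3, WT folinic acid array 2 or WT saline array 3, and 2 without KO saline array 3 or WT saline array 1 or 2.

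In KO saline against WT saline uteri, 15 members were higher and 9 lower, where 49.4% of all genes were higher and 50.6% lower. The median was 0.06, against -0.003 over all genes, and it was -0.04, with 14 members lower, without WT saline array 3. No member was at an unadjusted p under 0.05, where 1.54% of all genes were lower and 1.28% higher at that level, and none had groups without overlap, as 2% of all genes did in the lower and 2.22% in the higher direction. Without WT saline array 2, 2 members were at an unadjusted p under 0.05.

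In WT folinic acid against WT saline uteri, 17 members were higher and 7 lower, where 53.5% of all genes were higher and 46.5% lower. The median was 0.09, against 0.02 over all genes, and it was 0.01, with 11 lower, without WT saline array 3 and 0.19, with 4 lower, without WT saline array 1. None of the members was at an unadjusted p under 0.05, where 1.23% of all genes were higher and 1.1% lower. Shmt2 was the 1 member without overlap, as were 2.71% of all genes in the higher and 2.09% in the lower direction.

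The interaction asks whether the folinic acid difference in KO uteri differed from that in WT uteri. Its log2 value was below 0 for 19 members and above 0 for 5, where 51.8% of all genes were below and 48.2% above 0, with a member median of -0.32 against -0.01 over all genes. Only Mthfd2 was at an unadjusted p under 0.05, where 2.9% of all genes were below 0 and 2.09% above 0 at that level. The 1 member became 0 without KO saline array 1 or WT saline array 3, 4 without KO folinic acid array 2 or 3 or WT folinic acid array 2, 3 without KO saline array 3 or WT saline array 2, and 2 without WT folinic acid array 3 or WT saline array 4. Without WT saline array 3 the median was -0.15, and without KO folinic acid arrays 1 and 4 together it was -0.12. The comparisons share arrays, since KO folinic acid enters the first, the second and the interaction.

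**Figure D1:**
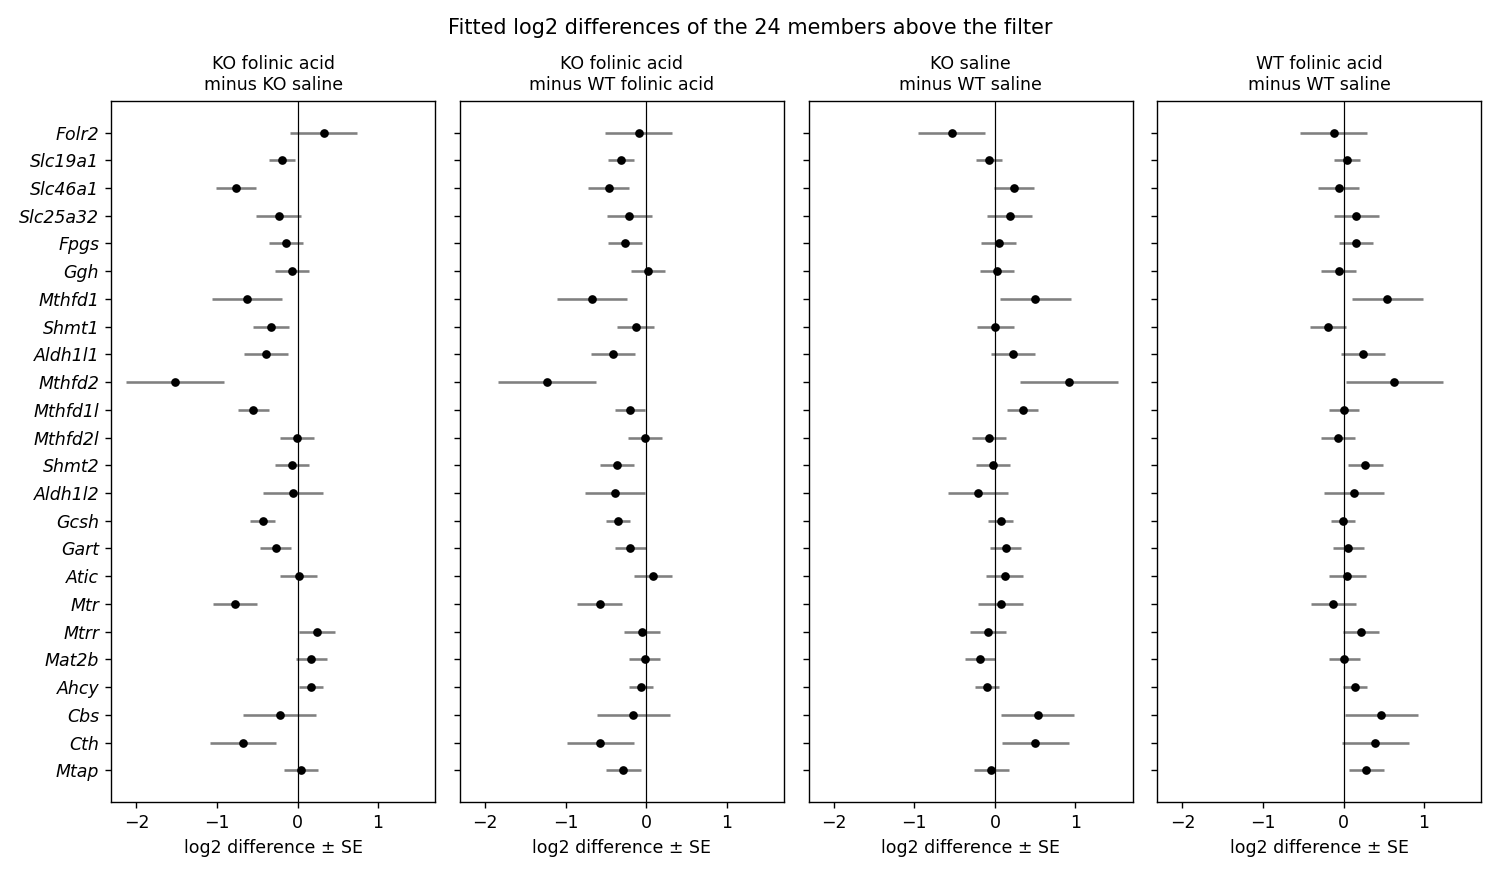
Fitted log2 differences of the 24 measured members (rows, ordered by role) in 4 comparisons (panels), with bars of 1 standard error from limma; the vertical line marks no difference. In KO folinic acid minus KO saline, 18 points lie left of the line, with Mthfd2 farthest at -1.52, and in KO folinic acid minus WT folinic acid 22 do.

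Uptake genes come first in the pathway. Folr1 and Folr2 encode membrane-anchored folate receptors, Folr2 being a receptor of placenta and of some macrophages. Folr1 had signals of 78.1, 89.5, 65.9 and 131 in KO folinic acid arrays 1 to 4, 109.8, 113 and 59.1 in KO saline, 88.4, 111 and 117 in WT folinic acid, and 118, 98.1, 322 and 143 in WT saline. All but WT saline arrays 3 and 4 lay under the filter's signal of 134, and the 4 groups overlapped. Folr2 had 680.4, 292, 179 and 458 in KO folinic acid, 245, 301 and 315 in KO saline, 281, 595 and 329 in WT folinic acid, and 497, 217, 466 and 586 in WT saline. Its KO folinic acid arrays covered the whole range of the series, and its log2 difference against KO saline was 0.32 ± 0.42 (SE, adjusted p = 0.789).

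Folr2 varied more between replicates than most genes, with a within-group SD of 0.63 on the log2 scale at the 94.5th percentile of all genes. In KO saline against WT saline uteri it was among the 3 members with the smallest p, at -0.54 ± 0.42 (SE, unadjusted p = 0.215).

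Slc46a1 encodes the proton-coupled folate transporter, which brings folate into cells at low pH. Its signals were 121, 206, 214 and 156 in KO folinic acid arrays, against 298, 355 and 227 in KO saline, 251, 178 and 289.8 in WT folinic acid, and 199, 257, 282 and 248 in WT saline. All 4 KO folinic acid arrays were below all 3 KO saline arrays, and overlapped with both WT groups. The mean was 174 ± 43.8 in KO folinic acid and 293 ± 64.4 in KO saline (SD, n = 4 and 3), a log2 difference of -0.76 ± 0.25 (SE, unadjusted p = 0.00863, adjusted p = 0.249 in limma). Slc46a1 had the smallest p of the members in this comparison, and leaving out 1 array at a time gave -0.94 to -0.60.

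Against WT folinic acid, Slc46a1 differed by -0.47 ± 0.25, and its interaction was -0.71 ± 0.36 (SE, unadjusted p = 0.0673). Its second probe set gave -0.56 against KO saline and -0.65 against WT folinic acid. The 250 bases before the Slc46a1 start in RefSeq (GRCm38.p6, chr11:78465451-78465700, plus strand) are shown because it had the smallest p. A GC box, the letters GGGCGG or their reverse complement CCGCCC, is in capitals 38 bases before the start.
Slc46a1: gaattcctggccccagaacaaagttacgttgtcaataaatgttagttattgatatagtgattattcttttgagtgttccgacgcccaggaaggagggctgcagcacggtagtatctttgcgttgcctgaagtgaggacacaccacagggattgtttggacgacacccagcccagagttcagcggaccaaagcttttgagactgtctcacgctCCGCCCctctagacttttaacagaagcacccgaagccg

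Slc19a1 encodes the reduced folate carrier, the route by which folinic acid itself enters most cells. Its signals were 595, 742, 708 and 639 in KO folinic acid, 758, 699 and 849 in KO saline, 826, 785 and 887 in WT folinic acid, and 939, 854, 615 and 862 in WT saline. Every KO folinic acid array was below every WT folinic acid array, while KO folinic acid and KO saline overlapped. The log2 difference against WT folinic acid was -0.32 ± 0.16 (SE, adjusted p = 0.999), and its replicates were close, with a within-group SD of 0.18 at the 17.9th percentile. A second probe set gave -0.19 in that comparison and 0.34 against KO saline, where the brighter one gave -0.20.

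Slc25a32, the carrier that moves folate into mitochondria, had 289, 221, 424 and 301 in KO folinic acid, 340.5, 310.4 and 417 in KO saline, 420.0, 316 and 316 in WT folinic acid, and 324, 396, 183 and 399.6 in WT saline. The 4 groups overlapped, with WT saline array 3 the lowest and KO folinic acid array 3 the highest of the series. Its log2 differences lay between -0.23 and 0.18 in the 4 comparisons, with standard errors of 0.28.

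Once inside, folate is held by polyglutamate tails. Fpgs, which adds them, was lower in KO folinic acid than in WT folinic acid by -0.26 ± 0.21 and otherwise lay between -0.15 and 0.16. Ggh, the lysosomal enzyme that removes them, lay between -0.07 and 0.03 in the 4 comparisons, with standard errors of 0.21. Neither retention gene had groups without overlap.

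Of the 5 mitochondrial interconversion enzymes measured, Mthfd2 and Mthfd1l were at an unadjusted p under 0.05 in KO folinic acid minus KO saline, where Shmt2, Aldh1l2 and Mthfd2l differed by -0.07, -0.05 and -0.01 on the log2 scale. Mthfd2, the mitochondrial dehydrogenase and cyclohydrolase that is known from embryonic and dividing cells, had signals of 261, 1167, 473 and 141 in KO folinic acid arrays, against 1344, 1656 and 576 in KO saline, 817, 1039 and 823 in WT folinic acid, and 442, 1395, 302 and 581 in WT saline. KO folinic acid arrays 1, 3 and 4 lay below all KO saline and WT folinic acid arrays, and array 2 lay among them. The WT saline arrays spread nearly as far, with array 2 high and array 3 low.

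The Mthfd2 mean was 511 ± 459 in KO folinic acid, 1192 ± 556 in KO saline, 893 ± 127 in WT folinic acid and 679.8 ± 490.2 in WT saline (SD, n = 4, 3, 3 and 4). KO folinic acid minus KO saline was -1.52 ± 0.60 on the log2 scale (SE, unadjusted p = 0.0236, adjusted p = 0.316 in limma), a fold of 0.348, with a 95% interval of the log2 difference of -2.81 to -0.23. It passed the threshold in 1 alternative alone, without KO folinic acid array 2, at -2.07 ± 0.52 (limma adjusted p = 0.0498). Under the other alternatives its limma adjusted p was 0.101 to 0.893, and without KO folinic acid arrays 1 and 4 together the difference was -0.55 ± 0.57. Those arrays had the lowest Mthfd2 signals of the group, so leaving them out works toward a smaller difference. KO folinic acid minus WT folinic acid was -1.23 ± 0.60, and -0.76 without KO folinic acid array 4.

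KO saline minus WT saline gave Mthfd2 0.92 ± 0.60, and 0.61 without WT saline array 3, and WT folinic acid minus WT saline gave 0.63 ± 0.60. The interaction was -2.15 ± 0.86 (SE, unadjusted p = 0.0237, adjusted p = 0.905 in limma), the largest of the 24. The second Mthfd2 probe set had smaller differences of the same sign in the 5 comparisons, -0.86 against KO saline, -0.60 against WT folinic acid and -1.32 for the interaction. The within-group SD of Mthfd2, 0.95 on the log2 scale, stood at the 98.8th percentile of all genes, and its highest array was 11.7-fold above its lowest.

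**Figure D2:**
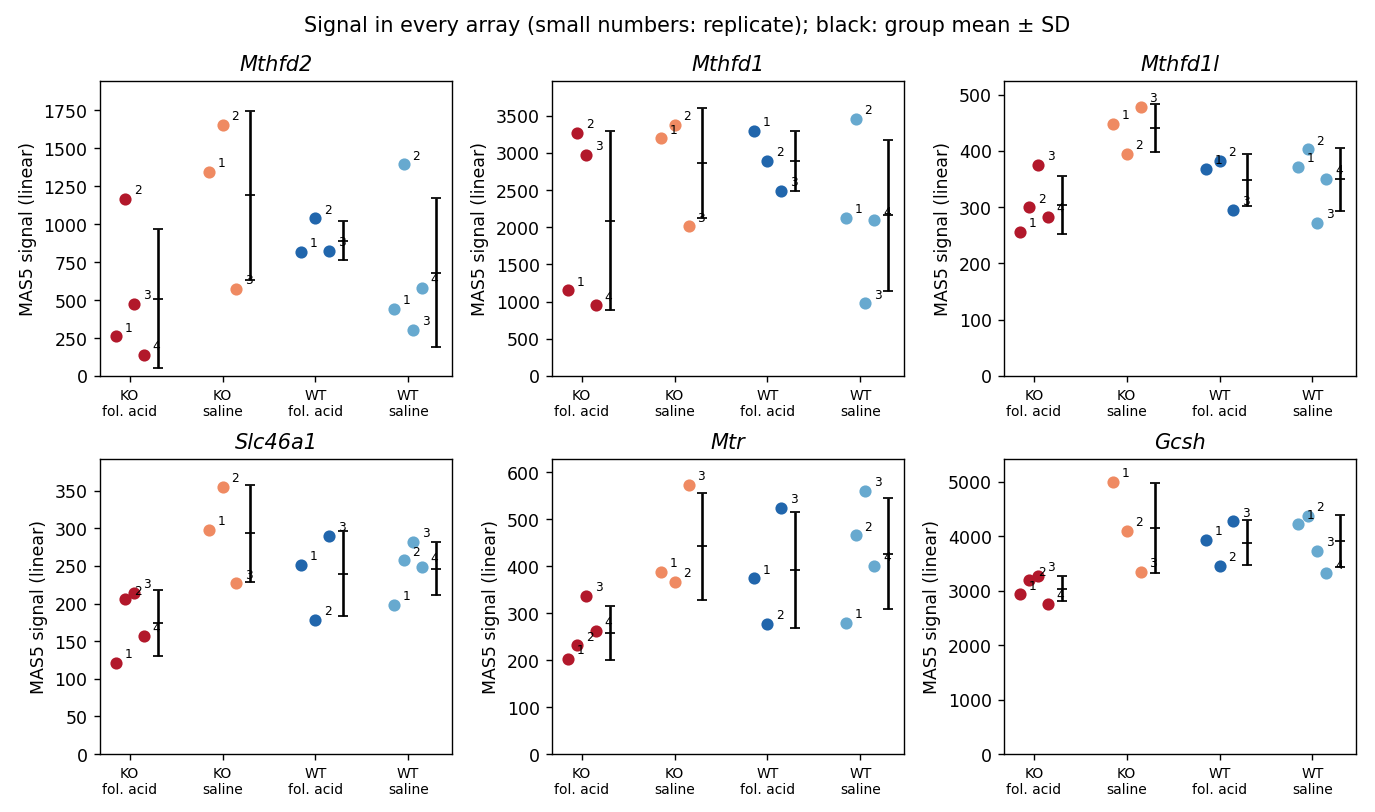
Linear MAS5 signal of 6 members in every array (points, numbered by replicate), by group from KO folinic acid on the left to WT saline on the right, with the group mean and SD in black. Mthfd1l, Slc46a1, Mtr and Gcsh have all 4 KO folinic acid points below the 3 KO saline points, while Mthfd2 and Mthfd1 have KO folinic acid points both high (array 2) and low (arrays 1 and 4).

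Mthfd1l, the mitochondrial enzyme that releases formate, had 256, 299.9, 376 and 283 in KO folinic acid, against 448, 395 and 479 in KO saline, 368, 382 and 295 in WT folinic acid, and 372, 403, 272 and 351 in WT saline. The KO folinic acid arrays were all below the KO saline arrays, by a log2 difference of -0.55 ± 0.19 (SE, adjusted p = 0.26 in limma). The KO saline arrays in turn were above 3 of the 4 WT saline arrays, and their difference of 0.34 ± 0.19 had the smallest p of any member there (unadjusted p = 0.0877). The folinic acid difference in WT was 0.00 ± 0.19, and the interaction was -0.55 ± 0.27 (SE, unadjusted p = 0.0574).

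Shmt2, which takes the carbon from serine in mitochondria, had 918, 1794, 1368 and 995 in KO folinic acid, 1437, 1518 and 969.6 in KO saline, 1531, 1717 and 1492 in WT folinic acid, and 1349, 1288, 1224 and 1374 in WT saline. All WT folinic acid arrays were above all WT saline arrays, by 0.27 ± 0.21 on the log2 scale (SE, unadjusted p = 0.225). KO folinic acid arrays spread from below to above every other array. The Shmt2 probe set used has an identifier of the type that can share probes with other sequences, and a second, dimmer one gave 0.14 in WT. Mthfd2l, a relative of Mthfd2, differed by -0.07 to -0.01 in the 4 comparisons, and its 2 other probe sets gave 0.23 and 0.28 for KO folinic acid minus KO saline. Aldh1l2, which oxidises formyl-folate in mitochondria, lay between -0.38 and 0.12, with standard errors of 0.37.

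In the cytosol, Mthfd1, the trifunctional enzyme that turns formate into the folate forms used downstream, had 1153, 3273, 2969 and 949.7 in KO folinic acid, against 3194, 3379 and 2011 in KO saline, 3299.5, 2888 and 2486 in WT folinic acid, and 2124, 3453, 977 and 2093 in WT saline. Arrays 1 and 4 of KO folinic acid and array 3 of WT saline were the 3 lowest of the series. The mean was 2086 ± 1204 in KO folinic acid and 2861 ± 742 in KO saline (SD, n = 4 and 3), and the log2 difference of -0.63 ± 0.44 was not past the threshold (adjusted p = 0.582). Its 2 other probe sets gave -0.90 and -0.56.

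In WT, Mthfd1 was 0.55 ± 0.44 higher after folinic acid, among the 3 members with the smallest p there, and 0.21 without WT saline array 3. The interaction was -1.17 ± 0.62 (SE, unadjusted p = 0.077). The 250 bases before the starts of Mthfd2 (chr6:83317605-83317854, minus strand) and Mthfd1 (chr12:76254982-76255231, plus strand) in RefSeq (GRCm38.p6) are shown. They were chosen because these genes had the largest within-group SDs of the measured interconversion enzymes. Capitals mark CCAAT boxes (CCAAT or ATTGG) and GC boxes (GGGCGG or CCGCCC).
Mthfd2: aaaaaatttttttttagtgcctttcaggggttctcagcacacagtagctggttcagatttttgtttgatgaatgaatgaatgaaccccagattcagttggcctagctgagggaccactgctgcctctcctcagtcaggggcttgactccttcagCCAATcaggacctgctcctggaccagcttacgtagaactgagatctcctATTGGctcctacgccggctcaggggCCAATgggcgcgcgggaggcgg
Mthfd1: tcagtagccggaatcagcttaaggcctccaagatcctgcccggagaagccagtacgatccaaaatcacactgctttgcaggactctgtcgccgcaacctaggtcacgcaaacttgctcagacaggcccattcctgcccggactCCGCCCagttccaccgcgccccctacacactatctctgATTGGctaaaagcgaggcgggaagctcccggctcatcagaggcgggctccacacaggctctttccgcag

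The Mthfd2 window holds 3 CCAAT boxes, 96, 47 and 22 bases before the start, and the Mthfd1 window holds 1 CCAAT box 69 bases and 1 GC box 107 bases before it. Of the 24 measured members 20 had such a window, 14 of them with CCAAT and 15 with GGGCGG on either strand, against 33.8% and 32.7% of 32851 RefSeq windows. CACGTG was found in 2 members and in 6.02% of all windows. TGACGTCA and TGATGNAAT were found in 0 members, and in 1.55% and 0.816% of all windows. Members were counted once per gene, some with several windows, while the shares are per window over all RefSeq windows, of measured genes or not. The members' counts and the shares are therefore not like for like. A match is only a description of the letters in this window.

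Shmt1, the cytosolic serine enzyme, differed by -0.33 ± 0.23 between KO folinic acid and KO saline and by -0.19 to 0.00 in the other comparisons. A dimmer Shmt1 probe set gave -0.85 for KO folinic acid minus KO saline. Aldh1l1, which oxidises formyl-folate in the cytosol, had 153, 284, 291 and 173 in KO folinic acid against 287, 319 and 253 in KO saline, with arrays 1 and 4 again low. Its log2 difference was -0.40 ± 0.27 (SE, adjusted p = 0.578).

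The glycine cleavage system breaks glycine down in mitochondria and passes a carbon to folate. Gcsh, its lipoyl carrier protein, had 2933, 3187, 3269 and 2754 in KO folinic acid, against 4989.7, 4089 and 3344 in KO saline, 3924, 3448 and 4272 in WT folinic acid, and 4227, 4370.1, 3728 and 3317 in WT saline. The 4 KO folinic acid arrays were the 4 lowest of the series, although the highest of them and the lowest KO saline and WT saline arrays were close. The mean was 3036 ± 236 in KO folinic acid, 4141 ± 824 in KO saline and 3881 ± 413 in WT folinic acid (SD, n = 4, 3 and 3).

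For Gcsh the log2 difference was -0.43 ± 0.15 against KO saline (SE, unadjusted p = 0.0127, adjusted p = 0.272 in limma) and -0.35 ± 0.15 against WT folinic acid (unadjusted p = 0.0358, adjusted p = 0.999). Without KO saline array 1 the KO saline difference was -0.29. KO saline minus WT saline was 0.07 ± 0.15 and WT folinic acid minus WT saline -0.01 ± 0.15. Gldc, the decarboxylase of the same system, lay below the filter, with 16.3, 434, 103 and 5.53 in KO folinic acid against 299, 248 and 64.8 in KO saline. KO folinic acid arrays 1 and 4 were again the lowest and array 2 the highest of the series.

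Of the enzymes that spend the carbon on nucleotides, Gart, which adds formyl groups in purine synthesis, had 825, 799, 919 and 700.0 in KO folinic acid, against 989, 931 and 1004 in KO saline. All KO folinic acid arrays were below the KO saline arrays, by -0.27 ± 0.19 (SE, adjusted p = 0.583), but the gene's 3 dimmer probe sets gave 0.39, 0.08 and -0.09. Atic, which completes the purine ring, had 2467, 6167, 3991 and 3233 in KO folinic acid against 3876, 4384 and 3009.8 in KO saline. Its KO folinic acid arrays included both the lowest and the highest of the series, and the difference was 0.01 ± 0.23. Tyms, thymidylate synthase, lay below the filter at 53.4 to 126 in KO folinic acid, 118 to 179 in KO saline, 100.2 to 112 in WT folinic acid and 57.8 to 194 in WT saline.

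In the methionine cycle, Mtr, the cobalamin-dependent methionine synthase, was the 1 gene of the 4 measured at an unadjusted p under 0.05, in KO folinic acid minus KO saline. It had 202, 231, 336 and 263 in KO folinic acid, against 387, 367 and 573 in KO saline, 374, 277 and 524 in WT folinic acid, and 279, 465, 560.0 and 399.9 in WT saline. The KO folinic acid arrays were all below the KO saline arrays and 3 of the 4 were below every array of the other groups. The log2 difference was -0.77 ± 0.28 against KO saline (SE, unadjusted p = 0.0132, adjusted p = 0.274 in limma) and -0.58 ± 0.28 against WT folinic acid (unadjusted p = 0.0528). The difference against WT folinic acid was -0.34 without WT folinic acid array 3.

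Against KO saline the other measured methionine cycle genes had the opposite sign to Mtr, and against WT folinic acid they had the same sign. Mtrr, which reactivates Mtr, Mat2b, the regulatory subunit of S-adenosylmethionine synthesis, and Ahcy, which hydrolyses S-adenosylhomocysteine, were higher in KO folinic acid than in KO saline by 0.24 ± 0.23, 0.17 ± 0.19 and 0.17 ± 0.15 on the log2 scale, none past the threshold. In KO folinic acid minus WT folinic acid these 3 genes were at -0.06, -0.02 and -0.07. Ahcy was the steadiest member, at 2348 to 3506 over the 14 arrays. Bhmt, which methylates homocysteine from betaine in liver, and Gnmt, a methyl-consuming liver enzyme, lay below the filter, Bhmt at 5.07 to 63.0 and Gnmt at 3.69 to 152.

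Homocysteine leaves the cycle by transsulfuration. Cth, which makes cysteine from cystathionine, had 496, 614, 546 and 201 in KO folinic acid, 683, 862 and 541 in KO saline, 796, 694 and 461 in WT folinic acid, and 578, 698, 215 and 624 in WT saline. KO folinic acid array 4 and WT saline array 3 were the lowest, and the difference against KO saline was -0.68 ± 0.41 (SE, adjusted p = 0.52). Cbs, which makes cystathionine, had 189.7, 1048, 247 and 250 in KO folinic acid and 375, 565 and 276 in KO saline, with 1 KO folinic acid array far above all others. Its difference was -0.22 ± 0.45.

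Mtap, which salvages methionine from the polyamine pathway, had 1570.1, 1712, 2085 and 1302 in KO folinic acid, 1727, 1704 and 1382 in KO saline, 2193, 1905 and 1918 in WT folinic acid, and 2028, 1788, 1046 and 1931 in WT saline. It had the smallest p of the members in WT folinic acid minus WT saline, at 0.28 ± 0.22 (SE, unadjusted p = 0.209), and 0.06 without WT saline array 3, its lowest. The 2 folate enzymes of the cytosol below the filter, Mthfs, which activates folinic acid, and Ftcd, a liver enzyme of histidine breakdown, had 34.4 to 90.6 and 5.72 to 105 over the 14 arrays.

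Members with several probe sets allow a check within the gene. In 11 genes, 18 further probe sets lay above the filter, and 12 of them had the sign of the brightest one in KO folinic acid minus KO saline, 15 in KO folinic acid minus WT folinic acid, 14 in KO saline minus WT saline, 15 in WT folinic acid minus WT saline and 17 in the interaction. The 2 probe sets of Slc46a1, the 2 of Mthfd2 and the 3 of Mthfd1 had 1 sign in KO folinic acid minus KO saline, and Slc19a1, Gart, Mtap and Mthfd2l had mixed signs there. The probe sets used for Slc46a1, Shmt1 and Cbs are of a type that can match several transcripts.

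**Figure D3:**
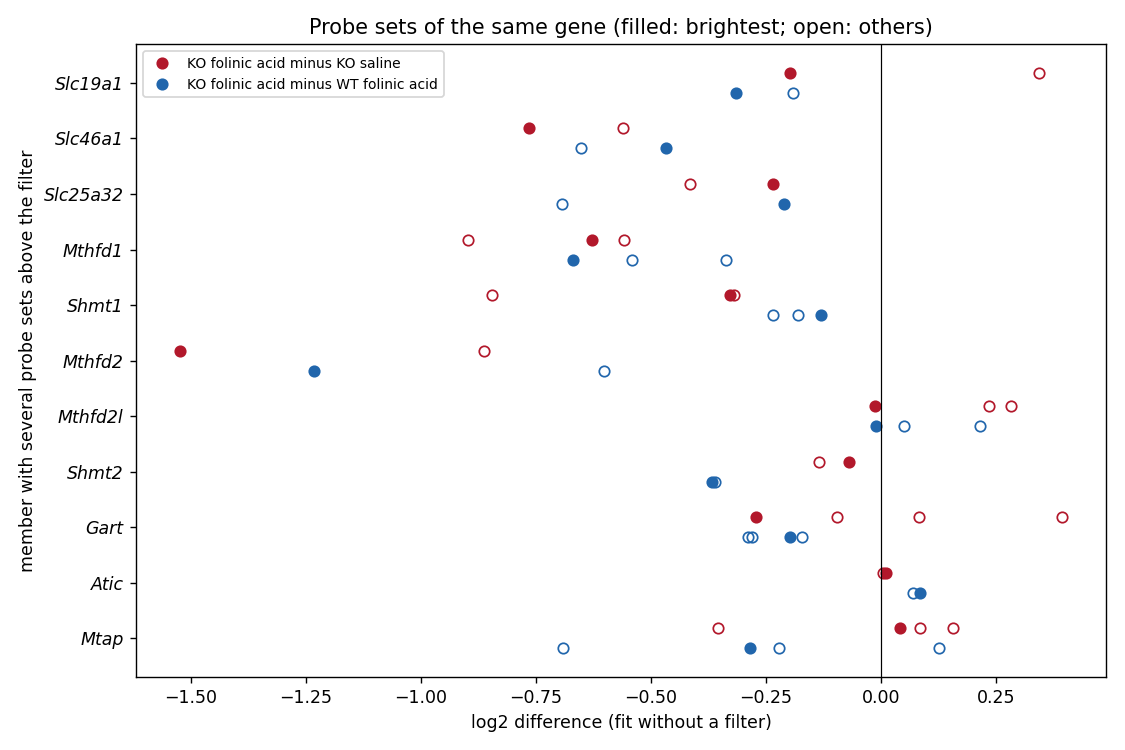
Log2 differences, from the fit without a filter, of each probe set above the filter in the 11 members that had several (rows); filled points are the brightest probe set of a gene and open points the others, red for KO folinic acid minus KO saline and blue for KO folinic acid minus WT folinic acid. All points of Mthfd1, Mthfd2, Shmt1, Shmt2, Slc25a32 and Slc46a1 lie left of 0, and the red points of Gart spread between -0.27 and 0.39.

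The members' differences were uneven across the 4 KO folinic acid arrays. The median deviation of the 24 members from their own 14-array means was -0.34 and -0.33 (log2) on KO folinic acid arrays 1 and 4, with 19 and 20 members below their mean, but -0.08 and 0.05 on arrays 2 and 3. KO saline arrays stood at 0.11, 0.05 and -0.14, WT folinic acid arrays at 0.15, 0.14 and 0.06, and WT saline arrays at 0.14, 0.09, -0.24 and 0.09. KO folinic acid arrays 1 and 4 and WT saline array 3 were thus the 3 low arrays of the series for these genes, and the same 3 had the lowest mean correlation with the other arrays over all probe sets kept (0.917, 0.927 and 0.912). The part of this in the members' differences was not tested. The pooled within-group SD of this per-array value was 0.15.

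The actin ratio was 1.54, 2.19, 3.12 and 1.74 on the KO folinic acid arrays and 3.64 on WT saline array 3, so the low arrays included the lowest and the highest ratio of the series. With the actin ratio as a covariate, an alternative added after the data had been seen, 0 members passed the threshold. The main fit also had 0, so this count cannot show what the covariate changed. Mthfd2 in KO folinic acid minus KO saline was -1.35 ± 0.66 with it and -1.52 ± 0.60 without it (log2, SE). The part of RNA completeness in the differences was not tested further.

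**Figure D4:**
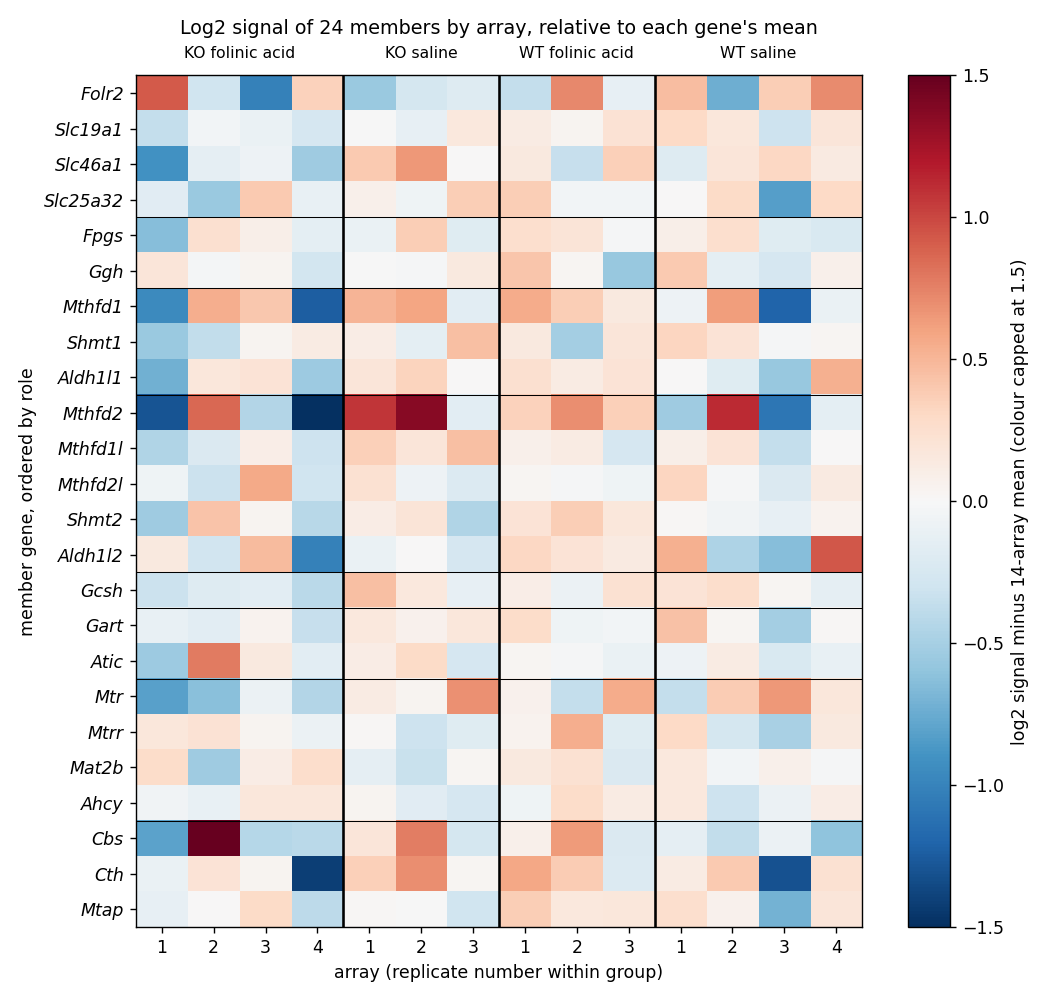
Log2 signal of the 24 measured members (rows, ordered by role, with lines between roles) on each of the 14 arrays (columns, by group), as the difference from the gene's 14-array mean; red is higher and blue lower, with the colour limited at 1.5. Blue runs down KO folinic acid columns 1 and 4 (19 and 20 members below their mean) and WT saline column 3 (19 members), and not down KO folinic acid columns 2 and 3.

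In the marker lists of cell types 0 markers passed the threshold in limma. All 17 measured proliferation markers were lower in KO folinic acid than in KO saline (median log2 difference -0.55) and than in WT folinic acid (-0.57). Their summed signal was 14569 to 22258 in KO folinic acid, 17596 to 34124 in KO saline, 20856 to 29949.5 in WT folinic acid and 21903 to 26817 in WT saline, and none was at 0. Tk1, thymidine kinase, had 133, 86.7, 89.9 and 103 in KO folinic acid and 235, 112 and 569 in KO saline. By array, proliferation markers were lowest on KO folinic acid array 2, which was not a low array for the members.

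All 7 measured macrophage markers, of 8 listed, were higher in KO folinic acid than in KO saline (median 0.64). Their summed signal was 9664 to 54383 in KO folinic acid, 8794 to 16852 in KO saline, 12739.9 to 16445 in WT folinic acid and 9596 to 27316 in WT saline, with KO folinic acid array 1 the highest of the series. Folr2, which some macrophages carry, was also highest on that array, at 680.4. Of 9 stromal markers 8 were lower in KO folinic acid than in KO saline (median -0.31), with summed signals of 111765 to 119414 in KO folinic acid, 124179.8 to 154235 in KO saline, 106056 to 115073 in WT folinic acid and 129343 to 143293 in WT saline. Summed stromal signal was thus below the saline groups in both folinic acid groups, although a sum weighs the brightest markers most. The median deviation of the 9 markers per array overlapped. It was -0.20 on WT saline array 3, against -0.05 on KO folinic acid array 1 and -0.004 on WT folinic acid array 1.

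Of 10 epithelial markers 7 were lower in KO folinic acid than in KO saline (median -0.16), with summed signals of 49773 to 70112 in KO folinic acid, 47385 to 64803 in KO saline, 42023 to 69843 in WT folinic acid and 35922 to 62951 in WT saline. At an unadjusted p under 0.05 in limma 2 epithelial markers were lower and 0 higher. At that level 6.94% of all genes were lower and 6.39% higher. The 2 lower epithelial markers were Cldn3, at -1.24 ± 0.42, and Krt19, at -0.77 ± 0.25 (log2, SE). The 3 epithelial markers that were higher were Ltf, at 1.02 ± 0.50, Foxa2, at 0.59 ± 0.35, and Cldn4, at 0.24 ± 0.31. Cldn3 had 1759, 8339, 3680 and 3297 in KO folinic acid, against 9592, 9324 and 7166 in KO saline. The 6 smooth muscle markers had a median of 0.03 in the same comparison. The 5 endothelial markers had a median of -0.16, the 2 lymphocyte markers 0.29 and the 1 pancreas marker 0.28. At an unadjusted p under 0.05 in limma, 4 of 9 stromal, 6 of 17 proliferation and 1 of 6 smooth muscle markers were lower. Higher at that level were 3 of 7 macrophage and 1 of 2 lymphocyte markers, and 0 endothelial markers were called either way.

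The adipocyte list had the largest medians of the marker lists between KO folinic acid and WT folinic acid, between WT folinic acid and WT saline, and in the interaction. All 3 measured markers of 6 listed, Adipoq, Fabp4 and Retn, were lower in KO folinic acid than in WT folinic acid (median -1.15) and than in KO saline (-0.40), higher in KO saline than in WT saline (0.37) and in WT folinic acid than in WT saline (1.23), and below 0 in the interaction (-1.499), with 0 at an unadjusted p under 0.05. The summed signal of the list was 1884 to 7656 in KO folinic acid, 1807 to 18054 in KO saline, 3717 to 26220.0 in WT folinic acid and 278 to 14177 in WT saline, so the groups overlapped. By array, the median deviation of these markers was -1.24 and -0.85 on KO folinic acid arrays 1 and 4 and 0.55 and 0.31 on arrays 2 and 3. On WT saline array 3, which was low for the members, it was 1.16. The extremes lay on other arrays, -4.31 on WT saline array 2 and 2.49 on WT folinic acid array 3. KO saline arrays 1 and 3 stood at -1.47 and 1.63.

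Alas2, the heme synthesis enzyme of red cell precursors and the 1 measured blood marker of 4 listed, was lower in KO folinic acid than in KO saline by -0.81 ± 0.31 and than in WT folinic acid by -0.84 ± 0.31 (SE, unadjusted p = 0.0193 and 0.0163, adjusted p = 0.299 and 0.999 in limma). The summed signal of the blood list was 255 to 453 in KO folinic acid, 433 to 712 in KO saline, 484 to 770.01 in WT folinic acid and 425 to 1136 in WT saline. No marker of these lists was at 0. The part of the mix of cells in the members' differences was not tested.

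**Figure D5:**
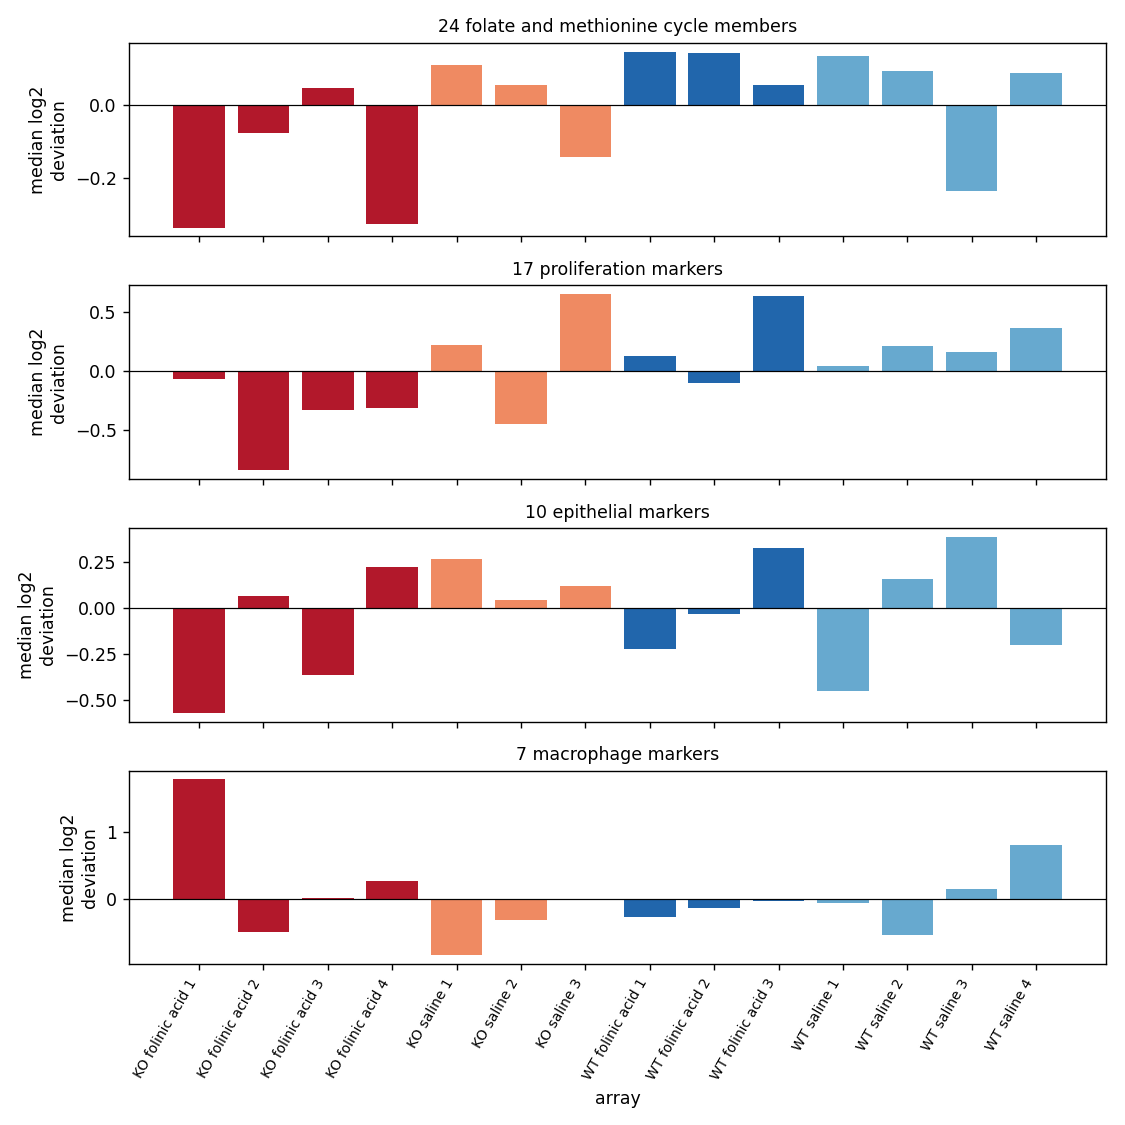
Median log2 deviation of the members, the proliferation markers, the epithelial markers and the macrophage markers (panels, each with its own axis) from each gene's 14-array mean, per array (bars from 0). The members are lowest on KO folinic acid arrays 1 and 4 (-0.34 and -0.33), the proliferation markers on KO folinic acid array 2, and the macrophage markers are highest on KO folinic acid array 1.

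Other genes around the folate and methionine cycles were taken from 3 lists of 51 genes in all. In folate and cobalamin handling, 5 of 10 measured genes were lower in KO folinic acid than in KO saline. Of these, 2 were at an unadjusted p under 0.05, where 6.94% of all genes were lower and 6.39% higher. In limma 0 passed the threshold. The largest difference was that of Lrp2, megalin, an endocytic receptor that takes up protein-bound vitamins in epithelia. It had 106, 4142, 631 and 67.3 in KO folinic acid, against 4079, 4407 and 3102 in KO saline, 2752, 3041 and 1839 in WT folinic acid, and 959, 3885, 1334 and 1455 in WT saline. KO folinic acid arrays 1, 3 and 4 were the lowest of the series and array 2 was among the KO saline values, and the log2 difference was -3.37 ± 0.99 (SE, adjusted p = 0.199 in limma).

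In the methionine, polyamine and sulfur branch, 10 of 16 measured genes were lower in KO folinic acid than in KO saline and 6 higher. The median was -0.14, and 0 were past the threshold in limma. At an unadjusted p under 0.05, 3 were lower, where 6.94% of all genes were lower and 6.39% higher. Cdo1, which commits cysteine to taurine and sulfate, had 791, 2948, 1754.5 and 951 in KO folinic acid against 4057, 4079 and 2597 in KO saline. Gclc, the catalytic subunit of the first step of glutathione synthesis, had 1334, 2571, 2818 and 1732 against 3832, 3626 and 3575. For Gclc every KO folinic acid array was below every KO saline array, and for Cdo1 array 2 overlapped. The log2 differences were -1.32 ± 0.42 for Cdo1 and -0.86 ± 0.27 for Gclc (SE, adjusted p = 0.235 and 0.234 in limma).

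In purine and pyrimidine synthesis, 9 of 14 measured genes were lower in KO folinic acid than in KO saline and 5 higher. The median was -0.08, and 0 were past the threshold in limma. At an unadjusted p under 0.05 there were 0, where 6.94% of all genes were lower and 6.39% higher. In the other 3 pairwise comparisons 0 genes of the 3 lists passed the threshold, and the lists' medians lay between -0.15 and 0.15.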

How the data were processed

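The arrays, of biotin-labelled whole-uterus RNA, were deposited as 1 linear intensity signal per probe set, made by the authors with MAS5, per the submitters' processing notes, which give no version. All values were above 0, and each array had been scaled to nearly the same mean after trimming 2% at each end. No detection calls were used. Of 45101 probe sets, 64 controls were left out. Signals below 1 were raised to 1 and put on the log2 scale. Probe sets at or above the median mean log2 signal, a signal of 134, were kept, which left 22519. A gene was represented by its brightest probe set and named only where the annotation gave 1 symbol.

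Differences were fitted with limma 3.58.1 in R 4.3.3, with 4 group means, 10 residual and 5.04 prior degrees of freedom and a variance trend, two-sided, adjusted by Benjamini-Hochberg over all probe sets kept. A log2 difference is the first group named minus the second. The code was tested on simulated data. The members and lists were chosen with earlier results of these data known, so no p is given over a list. Every array's signal is given for uptake receptors and carriers and for the 3 members with the smallest p in any comparison, and others were added after their values were seen. Promoter sequences are those of RefSeq, build GRCm38.p6, and 28 of the 33 members had one.

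Alternatives were quantile normalization, an offset of 16, no filter, a stricter filter, the mean of a gene's probe sets, no variance trend, robust variances, array weights, the compared groups only, a replicate block, a block for shared title numbers, and leaving out each array. The actin ratio as a covariate and the fit without 2 arrays together were chosen after seeing the data. The arrays left out together were those lowest for the members, so that fit works toward smaller differences in KO folinic acid and the interaction.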

Additional observations from a re-analysis of the deposited data

Results flagged for a closer look

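In 70 sets of 4 arrays, KO folinic acid or WT saline for each of the 31 members and for Lrp2, Cdo1, Gclc and Tk1, chosen after their values were seen, the highest or lowest array was looked at for a distance from the others that exceeded Dixon's 95% critical value. It did so in 5 sets, 7.14%, each time with the highest array. A chance rate of about 1 in 20 holds for independent sets of normally distributed values. Here the signals were linear, the sets shared arrays, and Lrp2 was among the genes chosen after their values were seen. The share therefore cannot be judged against that rate, and the sets are only listed.

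Cbs, the cystathionine synthase, had 1048 on KO folinic acid array 2, where the other 3 arrays of the group had 189.7 to 250. Gnmt, below the filter, had 40.2 on the same array, where the others had 3.69 to 5.13. Gldc, also below the filter, had 332 on WT saline array 2, where the others had 84.8 to 124. Lrp2, not a member, had 4142 on KO folinic acid array 2, where the others had 67.3 to 631, and 3885 on WT saline array 2, where the others had 959 to 1455. Mthfd2 was also highest in its groups on these 2 arrays, without passing this criterion.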

How the results depend on the processing

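No member passed the threshold under any alternative except Mthfd2 in KO folinic acid minus KO saline without KO folinic acid array 2, so leaving out 1 array gave 0 to 1 members there. No result changed sign past a threshold. Counts at an unadjusted p under 0.05 depended most on the settings. In KO folinic acid minus WT folinic acid the 1 member became 2 with no filter, 2 with the mean of a gene's probe sets, 0 without a variance trend, 5 with array weights, 2 with a replicate block, 2 with a block for shared title numbers, 3 with the actin covariate, and 0 to 5 leaving out 1 array. For the interaction the 1 member became 2 with quantile normalization, 2 with the mean of probe sets, 2 without a trend, 6 with array weights, 2 with the actin covariate, 0 without KO folinic acid arrays 1 and 4, and 0 to 4 leaving out 1 array. In KO saline minus WT saline the 0 became 1 with array weights and 0 to 2 leaving out 1 array, and in KO folinic acid minus KO saline the 5 became 0 without arrays 1 and 4 and 3 to 7 leaving out 1 array. In WT folinic acid minus WT saline the 7 lower members became 11 of 31 with no filter, 11 with array weights, and 4 to 11 leaving out 1 array, with a median of 0.01 to 0.19. Leaving out 1 array, the medians were -0.33 to -0.21 (17 to 23 lower) for KO folinic acid minus WT folinic acid, -0.26 to -0.15 (14 to 20 lower) for KO folinic acid minus KO saline, -0.04 to 0.13 (7 to 14 lower) for KO saline minus WT saline, and -0.39 to -0.15 for the interaction. Without KO folinic acid arrays 1 and 4 the medians were -0.055 for KO folinic acid minus KO saline and -0.12 for the interaction. The cause was not tested. The stricter filter left 20 members, and the fit on the compared groups only could not be made for the interaction. Replicate numbers were not taken to pair the samples. Deviations of same-numbered arrays correlated at -0.34 to 0.35 over 19 pairs, 6 above 0.1. Those of differently numbered arrays correlated at -0.47 to 0.47 over 54 pairs, 19 above 0.1. The block changed no other call. Signal over background limits Folr1, Gldc, Tyms, Mthfs, Ftcd, Bhmt and Gnmt.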
